A study of Homo sapiens with 5 samples.

Results

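The genes described here are the WNT ligands, their receptors and co-receptors, the secreted antagonists, the intracellular feedback genes and the nuclear effectors of the pathway in Ishikawa cells, an established line of endometrioid endometrial cancer. They were chosen by gene symbol: 52 protein-coding genes of the 57992 genes in the count table, namely 19 WNT ligands, 10 FZD receptors, the co-receptors LRP5 and LRP6, DKK1 to DKK4, 4 SFRP genes, 6 scaffold and feedback genes (AXIN1, AXIN2, NKD1, NKD2, RNF43 and ZNRF3), the R-spondin receptors LGR4 and LGR5, and CTNNB1 with 4 TCF/LEF factors. Poly(A) RNA was sequenced from 5 libraries in 3 groups. The EX527 co-culture group had 2 libraries from Ishikawa cells that shared medium with adipocytes and received EX527, a small-molecule inhibitor of the deacetylase SIRT1. The co-culture group had 2 libraries from Ishikawa cells that shared medium with adipocytes, without EX527. The monoculture group was 1 library from Ishikawa cells grown alone. In the co-cultures, adipocytes differentiated from preadipocytes sat above a membrane with pores of 0.4 µm, and the Ishikawa cells below it were cultured for 3 days. The dose of EX527 is not in the labels, and no library combined EX527 with monoculture. Nothing in the labels says that the replicates were separate cultures, so the p-values measure the spread between these libraries only.

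WNT ligands are secreted lipid-modified proteins that bind FZD receptors together with LRP5 or LRP6. In the canonical branch this binding stalls the AXIN scaffold that marks beta-catenin (CTNNB1) for destruction, and beta-catenin then enters the nucleus and acts on target genes through the TCF/LEF factors. Several target genes, AXIN2, RNF43, ZNRF3, NKD1 and DKK1 among them, damp the signal again, and in the endometrium WNT signalling is known for its part in gland formation and in endometrioid cancers, which often carry CTNNB1 mutations.

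In these cells the ligand gene WNT4 was at 5.96 and 4.81 CPM in the EX527 co-cultures, against 0.764 and 0.677 CPM in the co-cultures, and WNT7A was at 5.31 and 6.13 CPM in the EX527 co-cultures, against 18.7 and 18.1 CPM in the co-cultures (CPM, the reads of a gene per 1e6 counted reads of its library). The co-cultures also had the highest levels of the feedback gene RNF43, the receptor gene FZD2 and the co-receptor gene LRP5, and the lowest levels of the ligand genes WNT1, WNT6, WNT10A and WNT10B and of the effector gene LEF1. With all 5 libraries none of these differences passed edgeR's test, which called 0% of all genes. DESeq2 called 9.63% of all genes and 15.7% of the members tested between EX527 co-culture and co-culture. It called WNT4, WNT6, WNT10B and DKK2 higher and WNT7A, RNF43, FZD2 and LRP5 lower. DKK2 was at 6.55 CPM in EX527 co-culture replicate 1 and at 0.851 CPM in replicate 2.

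The libraries held 45653845 to 52269963 counted reads. All CPM levels are scaled by the trimmed mean of M values (TMM), and 3 reads, the limit that a count of 0 allows, came to 0.0529 to 0.0691 CPM across the libraries. These limits cover counting error only. The co-culture pair lay close together, with a mean chi-square per gene of 5.95, and the EX527 co-culture pair far apart, with 152. EX527 co-culture replicate 1 stood apart: 1194 protein-coding genes reached 1 CPM in it and in no other library, against 25 to 33 such genes in each of the other libraries. Long intergenic noncoding RNA took 2.66% of its reads, against 1.36% to 1.49% in the others. Processed pseudogenes took 0.739% of its reads, against 0.593% to 0.651%. Of the WNT pathway members, DKK2, LGR5 and WNT9B reached 1 CPM in that library alone, and WNT1 did so in EX527 co-culture replicate 2 alone. All 12 epithelial markers checked (EPCAM, KRT8, KRT18, PAX8 and others) were detected in every library, and their summed level was 1491 and 2551 CPM in the EX527 co-cultures, 6758 and 6167 CPM in the co-cultures and 2471 CPM in the monoculture. The summed level of 15 adipocyte markers was 145 and 199 CPM in the EX527 co-cultures, 156 and 154 CPM in the co-cultures and 211 CPM in the monoculture, with the adipocyte hormone gene ADIPOQ at no more than 0.90 CPM and the lipid carrier gene FABP4 at no more than 0.60 CPM. The summed level of 12 fibroblast and preadipocyte markers was 254 and 447 CPM in the EX527 co-cultures, 210 and 191 CPM in the co-cultures and 419 CPM in the monoculture. These sums hide a difference in breadth. In EX527 co-culture replicate 1, all 12 fibroblast and preadipocyte markers and all 15 adipocyte markers had at least 10 reads. In the other libraries, 5 to 7 and 8 to 12 of them did. The part of these markers in the differences below was not tested. In such bulk RNA, fewer cells of a type and less RNA per cell cannot be told apart.

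The windows of 250 bases before the RefSeq starts (GRCh38.p14) are shown for 5 genes. WNT4, WNT6 and WNT10A are 3 of the ligand genes with higher levels in both EX527 co-cultures than in both co-cultures. RNF43 is a feedback gene with the opposite order, as ZNRF3 and AXIN2 are. DKK1 is the only one of the 35 members in the RefSeq promoter table with a TCF/LEF core motif in this window. WNT6 and WNT10A are neighbours on the same strand of chromosome 2, with 6.618 kb between them. Capitals mark the TCF/LEF core (TCAAAG), the CCAAT box (CCAAT), the TATA box (TATAAA) and the GC box (GGGCGG) on either strand. WNT4 is given from chr1:22143098-22143347 (minus strand), WNT6 from chr2:218859555-218859804 (plus), WNT10A from chr2:218880602-218880851 (plus), RNF43 from chr17:58417535-58417784 (minus) and DKK1 from chr10:52314031-52314280 (plus).
WNT4: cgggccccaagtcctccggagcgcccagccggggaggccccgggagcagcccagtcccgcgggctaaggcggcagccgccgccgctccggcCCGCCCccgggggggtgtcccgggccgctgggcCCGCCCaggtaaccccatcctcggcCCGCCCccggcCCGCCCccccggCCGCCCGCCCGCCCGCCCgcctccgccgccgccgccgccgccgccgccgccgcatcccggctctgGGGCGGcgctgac
WNT6: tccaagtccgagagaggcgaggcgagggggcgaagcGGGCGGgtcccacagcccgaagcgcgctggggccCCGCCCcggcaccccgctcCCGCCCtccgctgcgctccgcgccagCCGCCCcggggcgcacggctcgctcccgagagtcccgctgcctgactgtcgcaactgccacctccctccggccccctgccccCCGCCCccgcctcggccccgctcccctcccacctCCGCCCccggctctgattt
WNT10A: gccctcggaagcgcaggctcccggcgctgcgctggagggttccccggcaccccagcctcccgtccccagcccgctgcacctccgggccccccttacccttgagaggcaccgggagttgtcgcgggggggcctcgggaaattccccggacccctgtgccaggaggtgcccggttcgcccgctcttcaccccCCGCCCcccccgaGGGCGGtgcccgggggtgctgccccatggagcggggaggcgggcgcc
RNF43: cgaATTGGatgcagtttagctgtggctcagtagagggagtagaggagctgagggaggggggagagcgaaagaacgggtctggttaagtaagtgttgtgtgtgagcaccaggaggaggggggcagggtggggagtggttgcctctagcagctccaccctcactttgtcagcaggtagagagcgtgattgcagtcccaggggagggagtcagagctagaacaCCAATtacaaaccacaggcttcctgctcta
DKK1: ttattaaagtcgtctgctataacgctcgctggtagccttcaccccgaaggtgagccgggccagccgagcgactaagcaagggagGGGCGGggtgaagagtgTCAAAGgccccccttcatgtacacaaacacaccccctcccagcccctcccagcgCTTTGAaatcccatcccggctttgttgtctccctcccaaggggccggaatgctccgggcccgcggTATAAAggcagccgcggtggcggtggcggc

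The WNT4, WNT6 and WNT10A windows held 86.8%, 79.2% and 77.6% G or C, with 9, 6 and 2 GC boxes, counting overlapping hits, and none of the other motifs searched. The RNF43 window held 56% G or C, 2 CCAAT boxes and no GC box. The DKK1 window held 62.8% G or C, 2 TCF/LEF cores, 1 TATA box and 1 GC box. Of the members, 35 matched the RefSeq promoter table, with 42 windows. GGGCGG stood in 73.8% of the member windows, against 42.6% of all 35116 windows. CCAAT stood in 38.1% against 32%, and TATAAA in 9.52% against 10.7%. TCAAAG stood in 1 member window (2.38%), against 11.2% of all windows. The longer form ATCAAAG, which contains TCAAAG, stood in 0 member windows, against 2.26%. These are matches of letters in a short window and say nothing of binding.

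No member passed an adjusted p of 0.05 in any comparison with all 5 libraries (edgeR's quasi-likelihood test, Benjamini-Hochberg adjustment over 34658 genes). The same was true of all genes tested, of which 0% were called in each comparison. Of the members, 51 passed the filter on low counts and DKK4 did not. The smallest adjusted p among members was 0.0824 for EX527 co-culture against co-culture, 0.128 for co-culture against monoculture and 0.614 for EX527 co-culture against monoculture. At an unadjusted p under 0.05 there were 14 members in the first comparison (all genes tested 19.3%, members 27.5%), 9 in the second (15.9%, members 17.6%) and 7 in the third (7.36%, members 13.7%). The median log2 fold change of the members was -0.07, 0.20 and 0.18 in these 3 comparisons, beside 0.15, 0.05 and 0.21 over all genes tested. Scaling by library size alone moved the first pair of medians to 0.24 for the members and 0.42 for all genes.

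The number of calls depended on which libraries set the spread. Without EX527 co-culture replicate 1, 29 of 49 members differed between EX527 co-culture and co-culture, 15 higher and 14 lower. In that fit 44.2% of all genes tested were called, 21.7% higher and 22.5% lower. Without EX527 co-culture replicate 2, 41 of 51 members differed, 18 higher and 23 lower, where 70.2% of all genes were called, 39.1% higher and 31.1% lower. Without either co-culture library, 0 members were called. When 1 EX527 co-culture library is left, that library is assumed to vary as little as the co-culture pair: the common dispersion was 0.00159 with replicate 1 of that group left out and 0.00164 with replicate 2 left out, against 0.0442 with all libraries. DESeq2, with all 5 libraries, called 8 members between EX527 co-culture and co-culture, where 9.63% of all genes were called. DKK2, WNT4, WNT6 and WNT10B were the 4 called higher (all genes 5.45%), and RNF43, FZD2, LRP5 and WNT7A the 4 called lower (all genes 4.18%).

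Among the ligands, WNT4, WNT6, WNT1, WNT10A and WNT10B were several-fold higher in EX527 co-cultures than in co-cultures, and WNT7A was lower. In sum the family differed little: 120 and 132 CPM in the EX527 co-cultures, 138 and 133 CPM in the co-cultures and 106 CPM in the monoculture. Libraries of both groups did not overlap for 12 ligands that were higher and 5 that were lower in EX527 co-cultures than in co-cultures. Over all members tested these counts were 18 higher (35.3%, all genes 28.3%) and 18 lower (35.3%, all genes 26.8%). Among the 18 higher were the ligand WNT8A and the receptor FZD10, which reached 10 reads only in EX527 co-cultures. These 2 genes entered the test only through the group in which they were high.

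**Figure D1:**
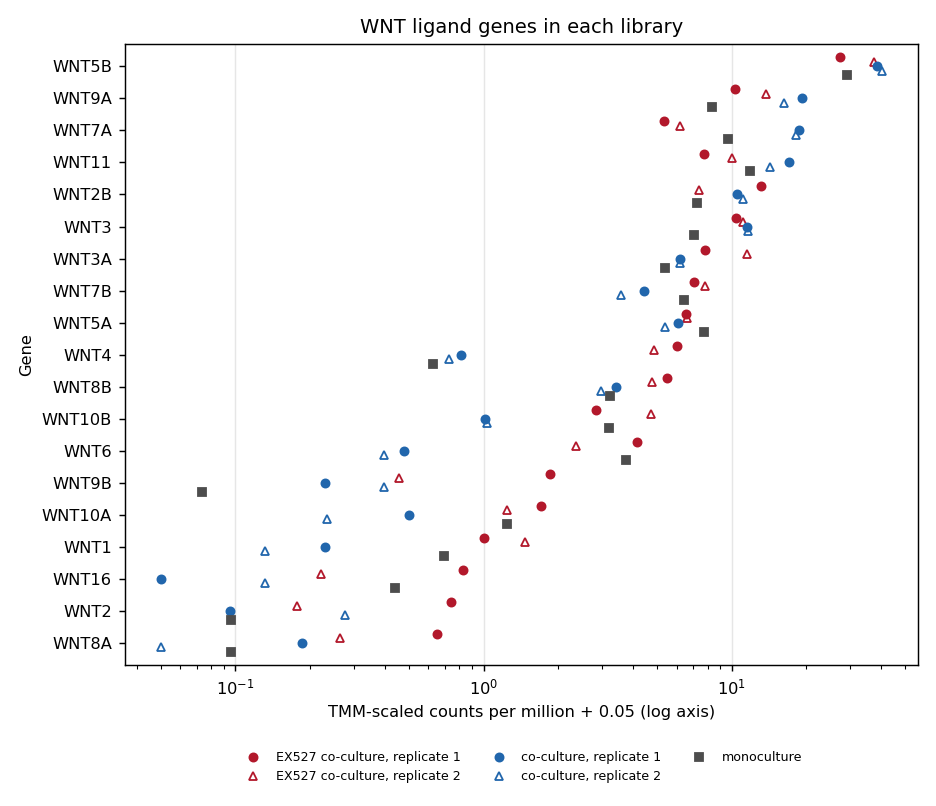
TMM-scaled CPM plus 0.05 (log axis) of the 19 WNT ligand genes, 1 point per library, ordered by level. WNT4 was at 5.96 and 4.81 CPM in the EX527 co-cultures against 0.764 and 0.677 CPM in the co-cultures, and WNT7A was at 5.31 and 6.13 CPM in the EX527 co-cultures against 18.7 and 18.1 CPM in the co-cultures.

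WNT4 (chr1:22117313-22143969, minus strand, GENCODE 44 on GRCh38), a ligand needed for development of the female reproductive tract, had 5.96 and 4.81 CPM in the EX527 co-cultures, 0.764 and 0.677 CPM in the co-cultures and 0.576 CPM in the monoculture. Both EX527 co-cultures lay above every other library, and the co-cultures lay close to the monoculture. The log2 fold change of EX527 co-culture over co-culture was 2.91 (SE 0.40, adjusted p = 0.0824), and over monoculture 3.22 (SE 0.55, adjusted p = 0.614). Over co-culture it was 2.74 with EX527 co-culture replicate 1 left out and 3.09 with replicate 2 left out, past the threshold in both.

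WNT6 (chr2:218859805-218874233, plus strand) had 4.09 and 2.30 CPM in the EX527 co-cultures, 0.427 and 0.349 CPM in the co-cultures and 3.71 CPM in the monoculture. Its neighbour WNT10A (chr2:218880852-218899581, plus strand), known for its role in teeth and hair, had 1.66 and 1.19 CPM in the EX527 co-cultures, 0.449 and 0.185 CPM in the co-cultures and 1.20 CPM in the monoculture. For both genes the co-cultures were the lowest libraries. For WNT6 the EX527 co-cultures lay on both sides of the monoculture, and for WNT10A 1 lay above it and 1 just below. WNT6 had a log2 fold change of 3.06 (SE 0.58, adjusted p = 0.120) in EX527 co-culture over co-culture and of -3.25 (SE 0.66, adjusted p = 0.139) in co-culture over monoculture. WNT10A had 2.20 (SE 0.65, adjusted p = 0.195) and -1.93 (SE 0.81, adjusted p = 0.344). These pairs of comparisons share the co-culture libraries, so the opposite signs are not separate observations.

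WNT1 and WNT10B are neighbours on chromosome 12, on opposite strands with 6.586 kb between them. WNT10B, which holds back adipocyte formation in mice, had 2.79 and 4.68 CPM in the EX527 co-cultures, 0.966 and 0.985 CPM in the co-cultures and 3.16 CPM in the monoculture. WNT1, a canonical ligand of brain development, had 0.953 and 1.43 CPM in the EX527 co-cultures, 0.180 and 0.0821 CPM in the co-cultures and 0.645 CPM in the monoculture. Here too the co-cultures were the lowest libraries, from 43 and 48 reads of WNT10B and 8 and 4 reads of WNT1. In EX527 co-culture over co-culture the log2 fold change was 1.92 (SE 0.47, adjusted p = 0.161) for WNT10B and 3.16 (SE 0.74, adjusted p = 0.137) for WNT1. In co-culture over monoculture it was -1.69 (SE 0.57, adjusted p = 0.261) for WNT10B and -2.30 (SE 1.01, adjusted p = 0.346) for WNT1.

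WNT7A (chr3:13816258-13880071, minus strand), a ligand of the uterine epithelium in mice, had 5.31 and 6.13 CPM in the EX527 co-cultures, 18.7 and 18.1 CPM in the co-cultures and 9.59 CPM in the monoculture. The EX527 co-cultures were the lowest libraries and the co-cultures the highest. The log2 fold change was -1.69 (SE 0.23, adjusted p = 0.0824) in EX527 co-culture over co-culture, -0.75 (SE 0.29, adjusted p = 0.614) in EX527 co-culture over monoculture and 0.94 (SE 0.28, adjusted p = 0.224) in co-culture over monoculture. WNT7B, the closest relative of WNT7A, had the opposite order, with 7.004 and 7.73 CPM in the EX527 co-cultures, 4.40 and 3.53 CPM in the co-cultures and 6.41 CPM in the monoculture. Its log2 fold change was 0.89 (SE 0.28, adjusted p = 0.209) in EX527 co-culture over co-culture and -0.69 (SE 0.34, adjusted p = 0.424) in co-culture over monoculture.

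WNT11 and WNT9A were lower in both EX527 co-cultures than in both co-cultures. WNT11, which acts mainly outside the beta-catenin branch, had 7.66 and 10.0 CPM in the EX527 co-cultures, 17.0 and 14.2 CPM in the co-cultures and 11.8 CPM in the monoculture. WNT9A, a ligand of joint formation in mice, had 10.3 and 13.7 CPM in the EX527 co-cultures, 19.1 and 16.2 CPM in the co-cultures and 8.32 CPM in the monoculture. In EX527 co-culture over co-culture the log2 fold change was -0.83 (SE 0.26, adjusted p = 0.211) for WNT11 and -0.57 (SE 0.26, adjusted p = 0.295) for WNT9A. WNT3A, the ligand most used to switch on the canonical branch in culture and a neighbour of WNT9A, was highest in the EX527 co-cultures. It had 7.73 and 11.5 CPM there, 6.16 and 6.16 CPM in the co-cultures and 5.35 CPM in the monoculture, a log2 fold change of 0.64 (SE 0.30, adjusted p = 0.307) over co-culture and of 0.84 (SE 0.39, adjusted p = 0.614) over monoculture. WNT8B, a ligand of the developing forebrain, was also highest there, with 5.43 and 4.72 CPM in the EX527 co-cultures, 3.37 and 2.93 CPM in the co-cultures and 3.18 CPM in the monoculture, a log2 fold change of 0.69 (SE 0.30, adjusted p = 0.281) over co-culture.

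WNT5B, WNT5A, WNT3 and WNT2B differed less between the EX527 co-cultures and the co-cultures. WNT5B, which acts mainly outside the beta-catenin branch, led the ligands per length in every group, at 7.65 CPM per kb in the EX527 co-cultures, 9.32 in the co-cultures and 6.89 in the monoculture. It had 27.3 and 37.6 CPM in the EX527 co-cultures, 38.6 and 40.5 CPM in the co-cultures and 29.2 CPM in the monoculture. Its relative WNT5A had 6.53 and 6.58 CPM in the EX527 co-cultures, 6.05 and 5.32 CPM in the co-cultures and 7.70 CPM in the monoculture. All WNT5A libraries lay within a narrow range, with the monoculture highest. WNT3, a canonical ligand, had 10.3 and 11.1 CPM in the EX527 co-cultures, 11.5 and 11.6 CPM in the co-cultures and 7.01 CPM in the monoculture. WNT2B, a canonical ligand whose exons overlap those of ST7L on the other strand, had 13.1 and 7.36 CPM in the EX527 co-cultures, 10.4 and 11.1 CPM in the co-cultures and 7.24 CPM in the monoculture, and its EX527 co-cultures lay on both sides of the co-cultures. WNT9B, a ligand of kidney tubule formation in mice, had 1.80 and 0.404 CPM in the EX527 co-cultures, 0.180 and 0.349 CPM in the co-cultures and 1 read in the monoculture. WNT2, WNT8A and WNT16 stayed under 1 CPM everywhere: they had 34 to 44 reads in EX527 co-culture replicate 1 and 0 to 17 reads in every other library.

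Summed by family, the FZD genes and the LRP genes were highest in the co-cultures. LGR4 and LGR5 together were highest in the monoculture, at 53.8 CPM, and not every gene followed the sum of its family. The FZD genes summed to 150 and 253 CPM in the EX527 co-cultures, 312 and 294 CPM in the co-cultures and 225 CPM in the monoculture, and LRP5 and LRP6 together to 87.0 and 154 CPM in the EX527 co-cultures, 210 and 203 CPM in the co-cultures and 170 CPM in the monoculture. Both sums were lower in both EX527 co-cultures than in both co-cultures, and the EX527 co-culture replicates lay far apart. Of the 10 FZD genes, 5 were lower (all genes 26.8%) and 1 was higher (all genes 28.3%) in both EX527 co-cultures than in both co-cultures. The higher gene was FZD10, with 41 and 4 reads in the EX527 co-cultures and 2 and 1 in the co-cultures. It passed the filter on low counts only through EX527 co-culture replicate 1, so its count as higher is no separate evidence.

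**Figure D2:**
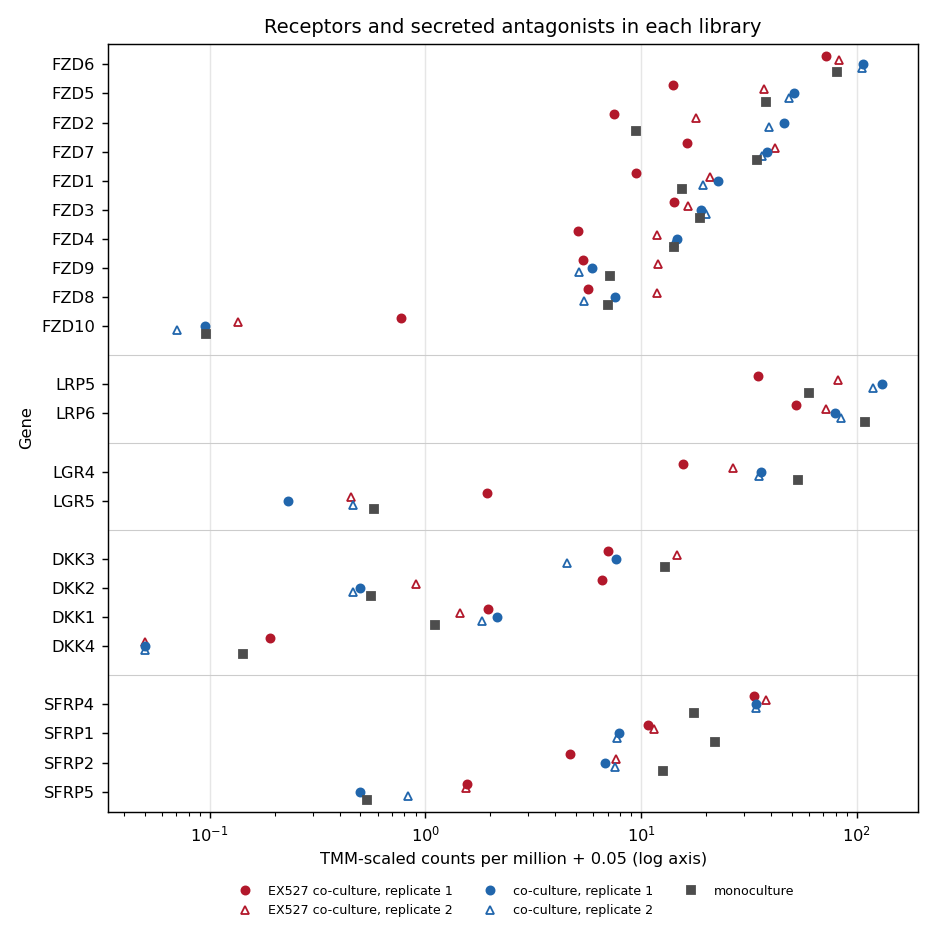
TMM-scaled CPM plus 0.05 (log axis) of the receptors, co-receptors and secreted antagonists, 1 point per library, in 5 blocks from FZD receptors at the top to SFRP antagonists at the bottom. FZD2 and LRP5 were lowest in EX527 co-culture replicate 1 and highest in the co-cultures, and SFRP1 was highest in the monoculture at 21.9 CPM.

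FZD2 (chr17:44557484-44561262, plus strand), a receptor for WNT5A among others, had 7.43 and 17.9 CPM in the EX527 co-cultures, 45.8 and 39.1 CPM in the co-cultures and 9.43 CPM in the monoculture. The co-cultures were the highest libraries, and the EX527 co-cultures lay on both sides of the monoculture. The log2 fold change was -1.76 (SE 0.44, adjusted p = 0.165) in EX527 co-culture over co-culture, or -1.24 with EX527 co-culture replicate 1 left out and -2.47 with replicate 2 left out. In co-culture over monoculture it was 2.17 (SE 0.59, adjusted p = 0.194). FZD5, a canonical receptor, had 14.0 and 37.3 CPM in the EX527 co-cultures, 51.1 and 48.4 CPM in the co-cultures and 37.8 CPM in the monoculture. Its log2 fold change of EX527 co-culture over co-culture was -0.96 (SE 0.47, adjusted p = 0.314), or -0.41 with EX527 co-culture replicate 1 left out and -1.78 with replicate 2 left out. FZD6, a receptor known for planar polarity, had 72.3 and 82.9 CPM in the EX527 co-cultures, 107 and 106 CPM in the co-cultures and 80.9 CPM in the monoculture. FZD6 had a log2 fold change of -0.46 (SE 0.19, adjusted p = 0.268) in EX527 co-culture over co-culture and 0.40 (SE 0.23, adjusted p = 0.508) in co-culture over monoculture.

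The other FZD genes had no common order. FZD7, a receptor often studied in cancer lines, had 16.3 and 41.7 CPM in the EX527 co-cultures, 38.5 and 36.2 CPM in the co-cultures and 34.5 CPM in the monoculture. FZD1 had 9.46 and 20.8 CPM in the EX527 co-cultures, 22.7 and 19.4 CPM in the co-cultures and 15.5 CPM in the monoculture. In both genes EX527 co-culture replicate 1 was the lowest library and replicate 2 lay beside or above the co-cultures. FZD4, also the receptor for norrin, had 5.03 and 11.7 CPM in the EX527 co-cultures, 14.6 and 14.2 CPM in the co-cultures and 14.2 CPM in the monoculture. FZD3, a receptor of axon guidance in mice, had 14.1 and 16.4 CPM in the EX527 co-cultures, 19.0 and 20.03 CPM in the co-cultures and 18.6 CPM in the monoculture. For FZD4 and FZD3 both EX527 co-cultures were below every other library. For FZD8 and FZD9 the highest library was EX527 co-culture replicate 2. FZD8 had 5.63 and 11.8 CPM in the EX527 co-cultures, 7.53 and 5.40 CPM in the co-cultures and 6.96 CPM in the monoculture. FZD9 had 5.31 and 12.0 CPM in the EX527 co-cultures, 5.89 and 5.11 CPM in the co-cultures and 7.14 CPM in the monoculture. FZD10 had 41 reads in EX527 co-culture replicate 1, 4 reads in replicate 2, and 1 or 2 reads in each other library.

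LRP5 and LRP6, which have overlapping roles as co-receptors, differed in opposite directions between co-culture and monoculture. LRP5 (chr11:68312591-68449275, plus strand) had 34.8 and 82.0 CPM in the EX527 co-cultures, 130 and 119 CPM in the co-cultures and 60.2 CPM in the monoculture. LRP6 had 52.2 and 71.6 CPM in the EX527 co-cultures, 79.4 and 84.4 CPM in the co-cultures and 110 CPM in the monoculture. Both were lower in both EX527 co-cultures than in both co-cultures, but only LRP5 was higher in the co-cultures than in the monoculture. LRP5 had a log2 fold change of -1.10 (SE 0.42, adjusted p = 0.258) in EX527 co-culture over co-culture and 1.05 (SE 0.54, adjusted p = 0.447) in co-culture over monoculture. That of LRP6 was -0.40 (SE 0.23, adjusted p = 0.354) in EX527 co-culture over co-culture, -0.42 (SE 0.27, adjusted p = 0.565) in co-culture over monoculture and -0.82 (SE 0.27, adjusted p = 0.614) in EX527 co-culture over monoculture. LGR4, a receptor for R-spondins, which strengthen WNT signals, was highest in the monoculture, with 15.5 and 26.6 CPM in the EX527 co-cultures, 35.8 and 35.2 CPM in the co-cultures and 53.3 CPM in the monoculture. LGR4 had a log2 fold change of -0.76 (SE 0.30, adjusted p = 0.266) in EX527 co-culture over co-culture, -0.58 (SE 0.36, adjusted p = 0.536) in co-culture over monoculture and -1.34 (SE 0.36, adjusted p = 0.614) in EX527 co-culture over monoculture. LGR5, the stem cell marker of the gut, had 1.89 and 0.404 CPM in the EX527 co-cultures, 0.180 and 0.410 CPM in the co-cultures and 0.530 CPM in the monoculture, and only EX527 co-culture replicate 1 stood out.

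The secreted antagonists showed no common direction between co-culture and monoculture. In both EX527 co-cultures against both co-cultures, 2 of 4 SFRP genes and 1 of 3 tested DKK genes were higher (all genes 28.3%). In each family 0 were lower (all genes 26.8%), and the other tested genes overlapped. SFRP proteins bind WNT ligands outside the cell. SFRP1 (chr8:41261962-41309473, minus strand) had 10.8 and 11.4 CPM in the EX527 co-cultures, 7.84 and 7.65 CPM in the co-cultures and 21.9 CPM in the monoculture. No groups of SFRP1 libraries overlapped: the monoculture was highest and the co-cultures lowest. SFRP1 had a log2 fold change of -1.50 (SE 0.26, adjusted p = 0.128) in co-culture over monoculture, -0.99 (SE 0.25, adjusted p = 0.614) in EX527 co-culture over monoculture and 0.52 (SE 0.22, adjusted p = 0.283) in EX527 co-culture over co-culture. SFRP4, whose level in normal endometrium follows the hormone cycle, had 33.2 and 37.8 CPM in the EX527 co-cultures, 33.9 and 34.1 CPM in the co-cultures and 17.5 CPM in the monoculture. All 4 libraries grown with adipocytes lay above the monoculture, and the EX527 co-cultures lay on both sides of the co-cultures. The log2 fold change of SFRP4 over monoculture was 1.02 (SE 0.25, adjusted p = 0.614) in EX527 co-culture and 0.96 (SE 0.25, adjusted p = 0.188) in co-culture, and both values use the same monoculture library. SFRP2 had the opposite order, with 4.62 and 7.60 CPM in the EX527 co-cultures, 6.79 and 7.53 CPM in the co-cultures and 12.6 CPM in the monoculture. SFRP5 had 1.52 and 1.49 CPM in the EX527 co-cultures, 0.449 and 0.780 CPM in the co-cultures and 0.484 CPM in the monoculture, from 20 to 86 reads, and only the EX527 co-cultures were above 1 CPM. In EX527 co-culture over co-culture this was a log2 fold change of 1.27 (SE 0.52, adjusted p = 0.271).

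DKK1 and DKK2 bind LRP5 and LRP6. DKK1 had 1.91 and 1.40 CPM in the EX527 co-cultures, 2.09 and 1.79 CPM in the co-cultures and 1.06 CPM in the monoculture. Its EX527 co-cultures overlapped the co-cultures, and the monoculture was lowest. DKK2 had 6.55 and 0.851 CPM in the EX527 co-cultures, 0.449 and 0.410 CPM in the co-cultures and 0.507 CPM in the monoculture. The log2 fold change of DKK2 in EX527 co-culture over co-culture, 3.14 (SE 1.19, adjusted p = 0.252), was 0.99 with EX527 co-culture replicate 1 left out and 3.97 with replicate 2 left out. DKK3, a distant relative whose part in WNT signalling is less clear, had 7.004 and 14.7 CPM in the EX527 co-cultures, 7.64 and 4.47 CPM in the co-cultures and 12.9 CPM in the monoculture. DKK3 had a log2 fold change of 0.83 (SE 0.48, adjusted p = 0.357) in EX527 co-culture over co-culture, where the libraries overlapped. DKK4 had 8 and 0 reads in the EX527 co-cultures, 0 and 0 reads in the co-cultures and 4 reads in the monoculture.

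Beta-catenin itself and the feedback genes RNF43, ZNRF3 and AXIN2 were highest in the co-cultures, and LEF1 and NKD2 were lowest there. AXIN1 and NKD1 had neither order. CTNNB1 (chr3:41194741-41260096, plus strand) had 160 and 286 CPM in the EX527 co-cultures, 369 and 345 CPM in the co-cultures and 266 CPM in the monoculture. The EX527 co-cultures lay on both sides of the monoculture and below both co-cultures. CTNNB1 had a log2 fold change of -0.68 (SE 0.32, adjusted p = 0.302) in EX527 co-culture over co-culture and 0.42 (SE 0.39, adjusted p = 0.720) in co-culture over monoculture. Over co-culture it was -0.31 with EX527 co-culture replicate 1 left out and -1.11 with replicate 2 left out. Beta-catenin is controlled chiefly at the protein level, which was not measured.

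**Figure D3:**
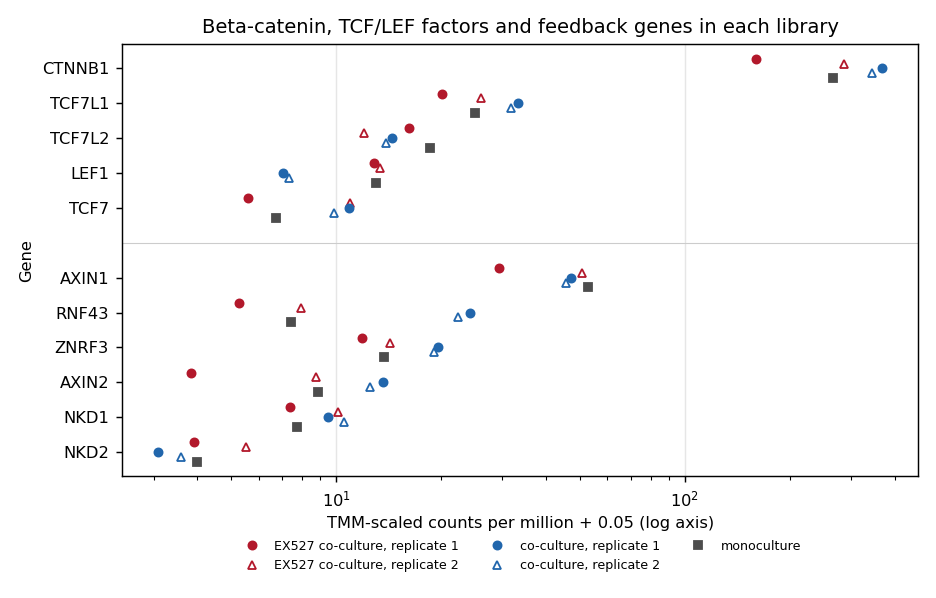
TMM-scaled CPM plus 0.05 (log axis) of CTNNB1 and the TCF/LEF factors (upper block) and of the scaffold and feedback genes (lower block), 1 point per library. RNF43 was at 24.2 and 22.4 CPM in the co-cultures, above every other library, and LEF1 was lowest in the co-cultures at 6.99 and 7.29 CPM.

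LEF1, a factor that activates WNT targets and is itself one, had 12.8 and 13.3 CPM in the EX527 co-cultures, 6.99 and 7.29 CPM in the co-cultures and 12.9 CPM in the monoculture. The EX527 co-cultures and the monoculture lay together, apart from the co-cultures. LEF1 had a log2 fold change of 0.87 (SE 0.22, adjusted p = 0.171) in EX527 co-culture over co-culture and -0.86 (SE 0.27, adjusted p = 0.237) in co-culture over monoculture. LEF1-AS1, whose exons overlap those of LEF1 on the other strand, had the same order, with 2.96 and 3.32 CPM in the EX527 co-cultures, 1.42 and 1.29 CPM in the co-cultures and 2.81 CPM in the monoculture. The sources used here do not give a strand setting for the counting, so reads of such overlapping pairs cannot be told apart. Exons of 13 members overlap those of a gene on the other strand in the count table (DKK1, DKK3, FZD4, FZD6, LEF1, LGR4, NKD1, RNF43, TCF7, TCF7L2, WNT2, WNT2B and WNT11), and exons of AXIN2 those of a gene on the same strand. TCF7L1, mainly a repressor of WNT targets, had 20.1 and 26.0 CPM in the EX527 co-cultures, 33.1 and 31.7 CPM in the co-cultures and 25.0 CPM in the monoculture. TCF7L1 had a log2 fold change of -0.49 (SE 0.22, adjusted p = 0.295) in EX527 co-culture over co-culture. TCF7L2, a TCF factor best known in the gut, had 16.1 and 12.0 CPM in the EX527 co-cultures, 14.4 and 13.9 CPM in the co-cultures and 18.6 CPM in the monoculture. TCF7, named for its role in T cells, had 5.52 and 10.9 CPM in the EX527 co-cultures, 10.8 and 9.83 CPM in the co-cultures and 6.66 CPM in the monoculture. For TCF7L2 and TCF7 the EX527 co-cultures lay on both sides of the co-cultures.

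RNF43 and ZNRF3 are ubiquitin ligases that remove FZD receptors from the cell surface, and R-spondins block them through the LGR receptors. RNF43 (chr17:58353676-58417595, minus strand) had 5.20 and 7.87 CPM in the EX527 co-cultures, 24.2 and 22.4 CPM in the co-cultures and 7.40 CPM in the monoculture. The EX527 co-cultures lay on both sides of the monoculture, and both co-cultures were about 3 times the monoculture level. RNF43 had a log2 fold change of -1.84 (SE 0.28, adjusted p = 0.0926) in EX527 co-culture over co-culture and 1.65 (SE 0.37, adjusted p = 0.153) in co-culture over monoculture. Over co-culture it was -1.56 with EX527 co-culture replicate 1 left out and -2.11 with replicate 2 left out. Exons of TSPOAP1-AS1 overlap those of RNF43 on the other strand. TSPOAP1-AS1 had 61.4 and 66.7 CPM in the EX527 co-cultures, 86.7 and 79.2 CPM in the co-cultures and 50.6 CPM in the monoculture, so its level was above that of RNF43 in every library. ZNRF3 had 11.8 and 14.2 CPM in the EX527 co-cultures, 19.6 and 19.0 CPM in the co-cultures and 13.7 CPM in the monoculture. ZNRF3 had the same order of groups as RNF43 with smaller differences: the log2 fold change was -0.57 (SE 0.22, adjusted p = 0.258) in EX527 co-culture over co-culture and 0.50 (SE 0.28, adjusted p = 0.487) in co-culture over monoculture.

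AXIN2, the target gene most often read as a measure of canonical signalling, had 3.78 and 8.70 CPM in the EX527 co-cultures, 13.6 and 12.5 CPM in the co-cultures and 8.83 CPM in the monoculture. Both co-cultures were above the other libraries, and EX527 co-culture replicate 1 was far below the rest. AXIN2 had a log2 fold change of -1.08 (SE 0.43, adjusted p = 0.261) in EX527 co-culture over co-culture and 0.56 (SE 0.52, adjusted p = 0.724) in co-culture over monoculture. Over co-culture it was -0.57 with EX527 co-culture replicate 1 left out and -1.74 with replicate 2 left out. AXIN1, the scaffold that is not itself a target, had 29.3 and 50.8 CPM in the EX527 co-cultures, 47.2 and 45.7 CPM in the co-cultures and 52.6 CPM in the monoculture. NKD1, which binds Dishevelled and damps the signal, had 7.30 and 10.1 CPM in the EX527 co-cultures, 9.46 and 10.5 CPM in the co-cultures and 7.67 CPM in the monoculture. For AXIN1 and NKD1 the EX527 co-cultures overlapped the co-cultures. NKD2, its relative, had 3.86 and 5.47 CPM in the EX527 co-cultures, 3.03 and 3.53 CPM in the co-cultures and 3.94 CPM in the monoculture, and was the only one of these 6 genes that was higher in both EX527 co-cultures than in both co-cultures.

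Placed side by side, the log2 fold changes of EX527 co-culture over co-culture ran from -1.84 for RNF43 to 3.16 for WNT1 among the members given by library. The higher end held WNT1, DKK2, WNT6, WNT4 and WNT10A, and the lower end RNF43, FZD2, WNT7A, LRP5 and AXIN2.

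**Figure D4:**
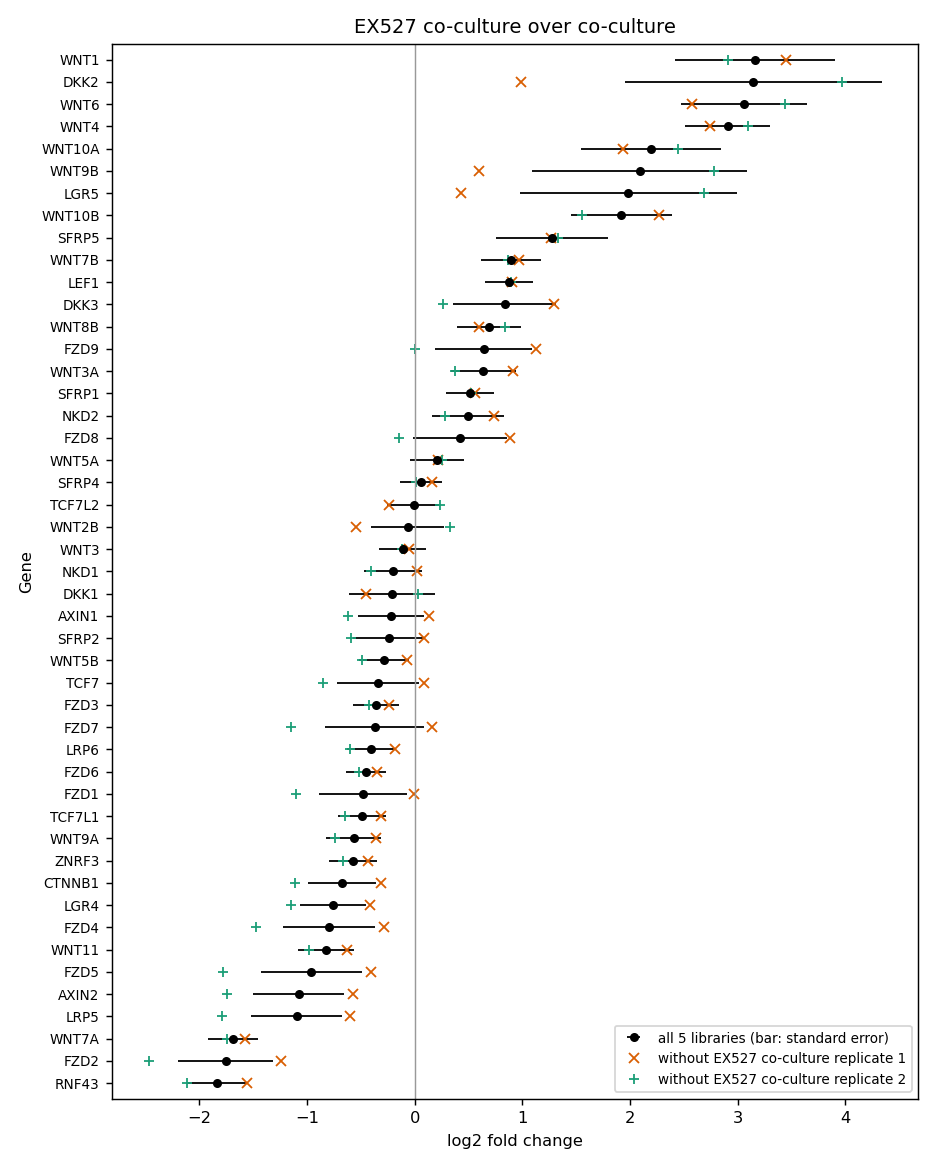
log2 fold change of EX527 co-culture over co-culture for the members given by library with more than 3 reads in each group. Points are from the edgeR fit to all 5 libraries, with the standard error as a bar. Crosses are from the fit without EX527 co-culture replicate 1, and plus signs from the fit without replicate 2. DKK2, WNT9B and LGR5 moved most between the fits, and RNF43, WNT7A and WNT4 kept their side of 0 in all of them.

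Co-culture was next set against monoculture, among members given by library with more than 3 reads in each group. FZD2, RNF43, WNT9A and LRP5 were at least 2 times higher in the co-cultures. WNT6, WNT1, WNT10A, WNT10B, SFRP1 and DKK3 were at least 2 times lower. Of all 51 members tested, 13 differed at least 2-fold in either direction (25.5%, all genes 36.3%). WNT9A had a log2 fold change of 1.09 (SE 0.34, adjusted p = 0.231), WNT3 of 0.72 (SE 0.29, adjusted p = 0.326), DKK3 of -1.10 (SE 0.56, adjusted p = 0.444) and SFRP2 of -0.82 (SE 0.38, adjusted p = 0.395). The monoculture is 1 library, so its own spread was taken from the other groups. Both co-cultures lay above the monoculture for 26 members (51%, all genes 42.8%) and below it for 20 (39.2%, all genes 40.7%). Without EX527 co-culture replicate 1, 34 of 49 members were called, 19 higher and 15 lower, where 53.9% of all genes were called, 26.9% higher and 27.1% lower. Without EX527 co-culture replicate 2, 32 of 51 were called, 18 higher and 14 lower, where 44.6% of all genes were called, 22.1% higher and 22.5% lower. DESeq2 with all libraries called FZD2 and RNF43 higher and SFRP1 and WNT6 lower, 4 members where 7.02% of all genes were called, 2.67% higher and 4.35% lower.

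**Figure D5:**
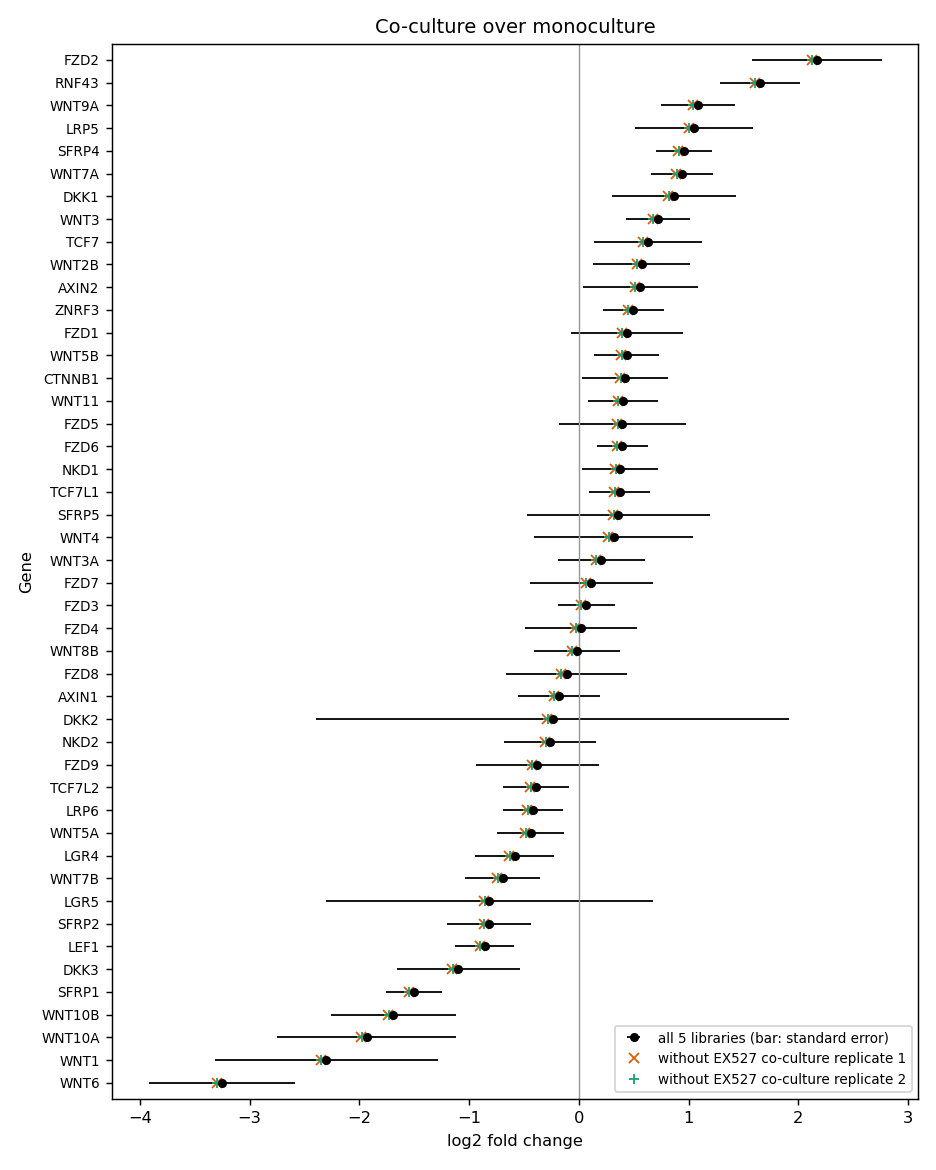
log2 fold change of co-culture over monoculture for the members given by library with more than 3 reads in each group. Points, bars and marks are as for the EX527 co-culture comparison. FZD2 (2.17) and RNF43 (1.65) were at the higher end and WNT6 (-3.25) and WNT1 (-2.30) at the lower end. Leaving out an EX527 co-culture library moved the values little. Neither group compared here holds such a library, so this small shift does not test the values.

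EX527 co-culture against monoculture changes EX527 and the adipocytes together. Both EX527 co-cultures lay above the monoculture for 16 members (31.4%, all genes 33.7%) and below it for 13 (25.5%, all genes 27.1%). FZD10 and WNT8A, which reached 10 reads only in EX527 co-cultures, are among the 16. WNT2 is too, with 39 and 6 reads in the EX527 co-cultures, 2 and 11 in the co-cultures and 2 in the monoculture. At the depth of co-culture replicate 2, 11 reads fell just short of the filter on low counts. All of these genes passed it only through EX527 co-cultures, so their counts as higher are no separate evidence. Of the differences in this comparison, that of WNT4 was the largest among members with over 3 reads in each group. SFRP5 had a log2 fold change of 1.63 (SE 0.71, adjusted p = 0.614) and SFRP2 of -1.06 (SE 0.38, adjusted p = 0.614). Without EX527 co-culture replicate 1, 20 of 49 members were called, 14 higher and 6 lower, where 33.8% of all genes were called, 14.7% higher and 19.1% lower. Without replicate 2, 31 of 51 were called, 13 higher and 18 lower, where 62.2% of all genes were called, 33.4% higher and 28.8% lower. DESeq2 called 0 members and 0.289% of all genes.

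Per kilobase of exon, beta-catenin and a few receptors led the members in every group. In the EX527 co-cultures the order began with FZD6 at 19.1 CPM per kb, CTNNB1 at 19.0, SFRP4 at 10.1 and LRP5 at 9.45. In the co-cultures it began with CTNNB1 at 30.3, FZD6 at 26.2, LRP5 at 20.1 and FZD2 at 11.2. In the monoculture it began with CTNNB1 at 22.6, FZD6 at 19.9, LRP6 at 10.6 and LRP5 at 9.74. Neighbours in this order such as FZD6 and CTNNB1 in the EX527 co-cultures do not differ beyond the spread of the libraries. FZD2 was thus among the leading 4 only in the co-cultures.

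Other genes of the pathway were read from lists set by function, in which edgeR's test with all 5 libraries called 0 genes. Of 7 genes for ligand secretion, 3 were higher (all genes 28.3%) and 1 was lower (26.8%) in both EX527 co-cultures than in both co-cultures, with a median log2 fold change of 0.14 (all genes 0.15), and DESeq2 called 0 higher (all genes 5.45%) and 1 lower (4.18%). WLS, which carries WNT ligands to the cell surface, was lower, with 24.2 and 38.4 CPM in the EX527 co-cultures, 64.8 and 69.7 CPM in the co-cultures and 33.8 CPM in the monoculture. NOTUM, which removes the lipid from WNT ligands, was higher, with 4.32 and 6.17 CPM in the EX527 co-cultures, 2.56 and 2.54 CPM in the co-cultures and 4.79 CPM in the monoculture. Of 17 other receptors and agonists, 9 were higher (all genes 28.3%) and 3 lower (26.8%), with a median of 0.45, and DESeq2 called 2 higher and 0 lower. ROR1, a receptor for WNT5A, had 14.3 and 7.22 CPM in the EX527 co-cultures, 2.13 and 2.91 CPM in the co-cultures and 16.7 CPM in the monoculture. Among 10 tested extracellular antagonists outside the DKK and SFRP families, 4 were higher (all genes 28.3%) and 3 lower (26.8%), with a median of -0.18, and DESeq2 called 0. SOSTDC1, which binds LRP5 and LRP6, had 7.71 and 8.36 CPM in the EX527 co-cultures, 16.2 and 16.6 CPM in the co-cultures and 17.0 CPM in the monoculture, so here the EX527 co-cultures were the lowest.

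Inside the cell, 22 genes of signal transduction and the destruction complex had a median log2 fold change of -0.17 in EX527 co-culture over co-culture and of -0.42 in co-culture over monoculture, where all genes had 0.15 and 0.05. Both co-cultures lay below the monoculture for 15 of them (all genes 40.7%) and above it for 5 (42.8%). DESeq2 called 1 of them higher and 1 lower in EX527 co-culture against co-culture, and 0 higher and 4 lower in co-culture against monoculture (all genes 2.67% and 4.35%). GSK3B, a kinase of the destruction complex, had 71.9 and 82.1 CPM in the EX527 co-cultures, 70.1 and 69.0 CPM in the co-cultures and 163 CPM in the monoculture. The DACT genes, which bind Dishevelled, differed among themselves. DACT2 had 1.99 and 0.936 CPM in the EX527 co-cultures, 10.4 and 9.46 CPM in the co-cultures and 3.00 CPM in the monoculture. DACT1 had 4.64 and 9.53 CPM in the EX527 co-cultures, 1.69 and 1.97 CPM in the co-cultures and 20.3 CPM in the monoculture. The co-cultures were thus the highest libraries for DACT2 and the lowest for DACT1. Of 17 nuclear cofactors, 3 were higher (all genes 28.3%) and 7 lower (26.8%) in EX527 co-cultures than in co-cultures, with a median of -0.35, and DESeq2 called 0 higher and 3 lower. TBL1XR1, a cofactor of beta-catenin, had 102 and 116 CPM in the EX527 co-cultures, 216 and 225 CPM in the co-cultures and 243 CPM in the monoculture. Of 19 genes of the planar polarity and calcium branches, 3 were higher (all genes 28.3%) and 12 lower (26.8%), with a median of -0.47, and DESeq2 called 1 higher and 2 lower. Both co-cultures were above the monoculture for 13 of these 19 genes (all genes 42.8%) and below it for 6 (40.7%), and DESeq2 called 2 higher and 2 lower there. CELSR1, a cadherin of planar polarity, had 87.4 and 202 CPM in the EX527 co-cultures, 488 and 493 CPM in the co-cultures and 177 CPM in the monoculture.

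Known beta-catenin targets other than the members did not share a direction. Of 29 tested, 11 were higher (all genes 28.3%) and 8 lower (26.8%) in both EX527 co-cultures than in both co-cultures, with a median log2 fold change of 0.26. DESeq2 called 4 higher and 4 lower, where it called 5.45% and 4.18% of all genes. The list of targets shares LGR6 with the other receptors, NOTUM with ligand secretion and APCDD1 with the extracellular antagonists. SOX4 and BIRC5 were lower, JUN and VEGFA higher. SOX4, a transcription factor, had 60.0 and 77.8 CPM in the EX527 co-cultures, 270 and 267 CPM in the co-cultures and 135 CPM in the monoculture. BIRC5, which codes for survivin and is made mostly in dividing cells, had 47.3 and 46.7 CPM in the EX527 co-cultures, 161 and 156 CPM in the co-cultures and 70.1 CPM in the monoculture. JUN, a subunit of the AP-1 factor, had 55.0 and 96.4 CPM in the EX527 co-cultures, 18.9 and 17.7 CPM in the co-cultures and 69.9 CPM in the monoculture. JUN and VEGFA were lowest in the co-cultures, where SOX4 and BIRC5 were highest. VEGFA, a growth factor for blood vessels that hypoxia also raises, had 378 and 562 CPM in the EX527 co-cultures, 157 and 155 CPM in the co-cultures and 552 CPM in the monoculture. All 4 are also controlled by other pathways, and the part of beta-catenin in their levels was not tested.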

How the data were processed

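Raw counts per gene were deposited by the authors for all 5 libraries. Per the submitters' processing notes, reads were handled with FastQC, MultiQC, fastp, STAR 2 and featureCounts on GRCh38.p7. The sources used here give no counting settings. Per the labels' protocols, poly(A) RNA was taken from 500 ng of total RNA. A second deposited table, of normalised values, was not used.

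Genes passing edgeR's filterByExpr (minimum count 10) were scaled by TMM and tested with edgeR 4.0.16's quasi-likelihood test (R 4.3.3) in 1 fit to all libraries with 2 residual degrees of freedom, and p-values were adjusted by Benjamini-Hochberg over all 34658 genes. Standard errors were computed as the log2 fold change over the root of F. CPM values are TMM-scaled. Alternatives were library size or RLE scaling, no filter, DESeq2 1.42.0, limma-voom (3.58.1), legacy dispersion, each replicate left out, and replicate blocks. The test script was checked on simulated data. Members with at least 1 CPM in some library were given by library. Of other lists, up to 2 genes per direction were eligible for naming, ranked by p, so the named genes are selected examples. Members and lists were chosen with earlier results of these data known. Positions are from GENCODE 44 and promoters from RefSeq, and both may differ from the authors' annotation.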

Additional observations from a re-analysis of the deposited data

How the results depend on the processing

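With all 5 libraries, edgeR's test called 0 members in each comparison, and likewise with library size or RLE scaling, without the filter on low counts, with limma-voom and with the legacy dispersion. DESeq2 called 8 members for EX527 co-culture against co-culture, 4 for co-culture against monoculture and 0 for EX527 co-culture against monoculture. Leaving out 1 library at a time gave 0 to 41, 0 to 34 and 0 to 31 called members in these 3 comparisons, with 0 whenever a co-culture library was left out. With the replicate number as a block, which the 4 co-culture libraries allow for EX527 co-culture against co-culture only, 3 members were called (RNF43 and FZD2 lower, WNT4 higher) where 3.05% of all genes were. The labels do not say that a number marks a shared batch, and the replicate differences of the groups correlated at -0.12 over genes. The crossed pairing, added after the data were seen, called 9 members where 12% of all genes were. The cause of these differences in calls was not tested.

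Of the 58 log2 fold changes printed for members, none turned its sign under any alternative. Values that did turn sign were not printed, so this describes the printed values only. Leaving out an EX527 co-culture library does not test the values of co-culture over monoculture, because neither of those groups holds such a library. Some sizes did depend on the libraries. Without EX527 co-culture replicate 1, the log2 fold change over co-culture was 0.99 for DKK2 and -0.19 for LRP6. Without EX527 co-culture replicate 2, it was 0.27 for DKK3 and 0.37 for WNT3A. Sizes depended on the scaling as well. The TMM factor was 1.21 for EX527 co-culture replicate 1 and 0.917 to 1.03 for the other libraries. Scaled by library size alone, the log2 fold change over co-culture was -0.19 for FZD6, -0.14 for LRP6 and -0.30 for ZNRF3, smaller differences than with TMM. For WNT7B and LEF1 it was 1.17 and 1.15, larger differences than with TMM. Of all 47 members given by library, 11 turned sign in at least 1 alternative for EX527 co-culture against co-culture, 5 for co-culture against monoculture and 23 for EX527 co-culture against monoculture. With 2 replicates at most in a group, a p that misses the threshold does not show that levels were alike.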
